A study of Mus musculus with 62 samples.

Results

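Mock-injected hearts (Con, animals given no tumour cells) were compared between week 8 and week 2 after the injection, with all genes tested. The 10 libraries, 5 per week, were taken by their labels from 62 libraries of 12 groups. The animals were female mice injected at 2 months of age, so week, age and harvest day cannot be told apart. Their strain is C57BL6/J in the sample labels but NCI Ath/nude in the design text. The other arms carried melanoma cells that caused wasting (CAC) or did not (NCAC), and served here only for the same change over time. They entered with 5 NCAC hearts at each week, and with 5 CAC hearts at week 2 and 7 at week 8. Mock-injected hearts of week 4 (4 libraries, without library 2, in which 89% of TPM was mitochondrially encoded) and week 6 (5 libraries) were set beside them.

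The adult mouse heart is made mostly of non-dividing cardiomyocytes that run on fatty acids and carry a large mass of mitochondria. Respiratory chain proteins come partly from nuclear genes and partly from the mitochondrial genome, and the former are made on cytosolic ribosomes. In young adulthood the heart still grows with the body, while the fetal contractile and natriuretic peptide genes are already low in the ventricle.

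Values are in TPM, a transcript's abundance per length as a share of its library, which were rescaled by 1 factor per library. Differences are week 8 minus week 2 on log2(rescaled TPM + 1), and a gene was called when limma's p, adjusted over 11697 genes by Benjamini-Hochberg, was below 0.05. A library held an estimated 42960000 to 46820000 reads. The cardiomyocyte markers summed to 51518 to 55870 TPM at week 2 and 49185 to 54778 TPM at week 8. The atrial markers Sln and Myl7 were at most 0.567 TPM and 0.329 TPM. The summed atrial list, which also holds Nppa, ran from 335 to 1111 TPM at week 2 and 227 to 464 TPM at week 8. The T cell markers Cd3e, Cd3d, Cd3g, Cd4, Cd8a, Cd8b1, Trac and Lck stayed at or below 0.501 TPM, the highest being Trac. The summed T and NK cell list ran from 1.45 to 8.79 TPM at week 2 and 2.45 to 4.58 TPM at week 8. Library 1 of week 2 stood apart from the others on the first principal component (-29.8, the rest -3.59 to 11.9). The transcript of the class II pseudogene H2-Ea-ps was at 0 in library 5 of week 2 and libraries 2 and 5 of week 8, and at 7.76 to 55.9 TPM in the other 7.

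Of 11697 genes, 18 rose (0.154%) and 41 fell (0.351%), 59 in all (0.504%), and the largest in each direction are described here. The genes that rose were led by Lrrc10b, a leucine-rich repeat gene, and Slc40a1, the iron exporter ferroportin. Those that fell included mt-Nd6, a mitochondrially encoded subunit of complex I, ribosomal protein genes such as Rps27, and genes for small proteins of the mitochondria. At an unadjusted p below 0.05 there were 2183 genes (18.7%). The values of the 5 libraries at each week did not overlap in 392 genes that were higher (3.35%) and 476 that were lower (4.07%).

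The calls rested on the whole set of libraries. Without library 1 of week 2 the counts were 101 higher and 206 lower, and these held all 18 and all 41 genes. Leaving out another library of week 2 gave 2 and 5 (library 2), 2 and 3 (library 3), 1 and 1 (library 4) or 2 and 0 (library 5). Of week 8, leaving out library 2 gave 0 and 5, and leaving out library 1, 3, 4 or 5 gave 0 in both directions. On the deposited TPM, where the median gene differed by 0.06 instead of 0.01, the counts were 3 higher and 1 lower. With H2-Ea-ps as a second term they were 1 higher and 2 lower.

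Promoters are printed for 4 genes that fell and hold a shared run of letters, and for 1 gene that fell and 1 that rose without it. The run is CCGGAAG, read on both strands (its reverse is CTTCCGG), the core to which ETS family factors are known to bind. It was chosen after the promoters of these genes had been looked at, so a higher share among them is no independent support. RefSeq promoters (GRCm38.p6, 250 bases before to 50 after the start) were matched by symbol for 26 of the 41 genes that fell and 11 of the 18 that rose. The run stood in 9 of 26 (34.6%) and 1 of 11 (9.09%), against 20.3% of 8844 tested genes with a promoter and 20.2% of 1149 such genes with an exonic length under 2000 bases. The 40 ribosomal protein genes of the list described below had it in 10 of 31 promoters (32.3%), and the 43 nuclear respiratory chain genes in 4 of 30 (13.3%). A match is a run of letters and not a measured site. Each line gives the 150 bases before the start, 5′ to 3′ on the gene's strand, with the run in capitals. The sequences are from chr1:55087998-55088147 (+) for Hspe1, where 2 matches overlap, chr17:33955666-33955815 (-) for Rps18, chr1:178319003-178319152 (+) for Cox20, chr6:40471318-40471467 (+) for Ssbp1, chr3:90213649-90213798 (-) for Rps27 and chr19:10457448-10457597 (-) for Lrrc10b.
Hspe1: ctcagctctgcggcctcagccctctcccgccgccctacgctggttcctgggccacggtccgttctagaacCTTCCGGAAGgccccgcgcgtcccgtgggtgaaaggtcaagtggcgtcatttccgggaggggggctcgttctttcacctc
Rps18: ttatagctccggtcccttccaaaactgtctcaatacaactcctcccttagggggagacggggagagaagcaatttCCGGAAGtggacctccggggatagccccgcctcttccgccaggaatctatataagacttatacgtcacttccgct
Cox20: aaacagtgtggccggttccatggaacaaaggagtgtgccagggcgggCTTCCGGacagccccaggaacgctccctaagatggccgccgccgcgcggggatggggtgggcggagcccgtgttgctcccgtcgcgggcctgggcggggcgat
Ssbp1: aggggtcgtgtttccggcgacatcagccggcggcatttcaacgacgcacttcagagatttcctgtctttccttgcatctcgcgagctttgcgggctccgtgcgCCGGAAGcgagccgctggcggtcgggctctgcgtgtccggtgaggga
Rps27: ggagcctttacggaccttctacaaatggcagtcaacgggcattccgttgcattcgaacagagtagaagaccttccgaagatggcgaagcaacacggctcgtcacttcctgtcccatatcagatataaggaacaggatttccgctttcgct
Lrrc10b: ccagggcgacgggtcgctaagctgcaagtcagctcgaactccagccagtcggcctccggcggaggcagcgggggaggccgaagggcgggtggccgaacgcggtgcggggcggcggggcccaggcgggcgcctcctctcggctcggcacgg

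Lrrc10b (ENSMUSG00000090291.3, chr19:10455371-10457473, minus strand) gave the largest rise. Its level was 0.812, 1.13, 0.706, 1.99 and 1.71 TPM in the week 2 libraries and 4.65, 4.496, 3.33, 6.90 and 3.09 TPM in those of week 8. All 5 later hearts lay above all 5 earlier ones, and the difference was 1.27 ± 0.20 (SE, limma adjusted p = 0.0353). Between them the mean was 2.71 ± 1.45 TPM (SD, n = 4) at week 4 and 3.62 ± 1.60 TPM (SD, n = 5) at week 6, with wide overlap of neighbouring weeks. In NCAC hearts of week 8 the level ran from 1.13 to 18.2 TPM, and in CAC hearts of that week from 0.263 to 2.49 TPM.

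Slc40a1 (ENSMUSG00000025993.10, chr1:45908068-45926523, minus strand), the only known iron exporter of mammalian cells, was second. It measured 1.13, 1.16, 1.09, 1.31 and 2.36 TPM at week 2 and 5.53, 3.48, 3.86, 6.24 and 3.24 TPM at week 8. The groups did not overlap, and the difference was 1.17 ± 0.17 (SE, limma adjusted p = 0.0304). Weeks 4 and 6 had means of 2.20 ± 0.625 TPM (SD, n = 4) and 3.36 ± 1.70 TPM (SD, n = 5), and 2 of the week 6 hearts lay in the range of week 2. Macrophages also make ferroportin. The summed macrophage and monocyte markers ran from 254 to 350 TPM at week 2 and 259 to 381 TPM at week 8. Of 15 tested members 13 were higher, where 6184 of 11697 genes were. None was called, where 0.504% of all genes were, and their part in the result was not tested. In bulk tissue, more cells of a type and more RNA per cell cannot be told apart.

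**Figure D1:**
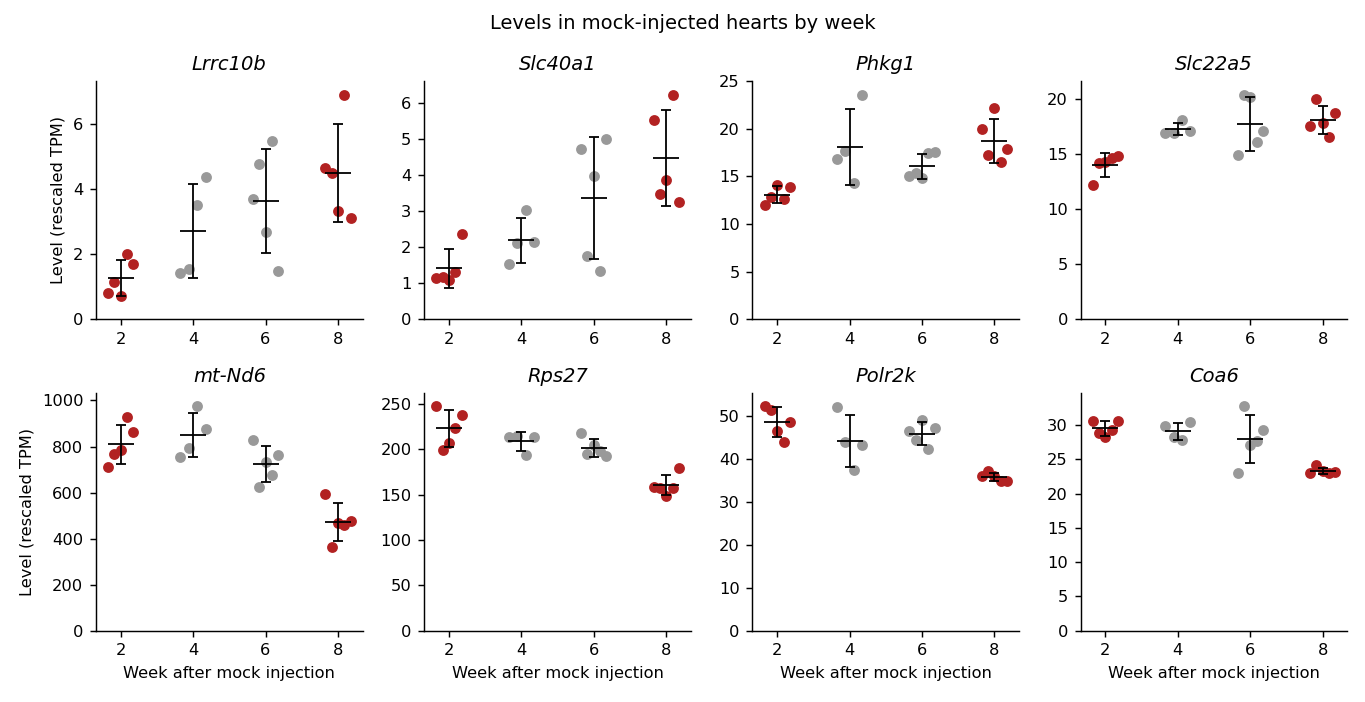
Level (rescaled TPM, each axis from 0) of 4 genes that rose (upper row) and 4 that fell (lower row) in mock-injected hearts at weeks 2, 4, 6 and 8. Points are libraries, red for the compared weeks, and bars show the mean and SD (n = 5, at week 4 n = 4). The red points of week 8 lie all above or all below those of week 2, while grey points of weeks 4 and 6 overlap one or both.

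Phkg1, Slc22a5 and Prps2 were among the other rises. Phkg1, the catalytic gamma subunit of muscle phosphorylase kinase that switches on glycogen breakdown, measured 12.003 to 14.1 TPM at week 2 and 16.5 to 22.2 TPM at week 8 (0.48 ± 0.08, SE, limma adjusted p = 0.0381). Slc22a5, the carnitine transporter on which fatty acid oxidation depends, measured 12.1, 14.2, 14.2, 14.6 and 14.8 TPM at week 2. At week 8 it measured 17.5, 20.0, 17.8, 16.6 and 18.7 TPM, above every earlier heart (0.35 ± 0.06, SE, limma adjusted p = 0.0481). Its mean was already 17.3 ± 0.571 TPM (SD, n = 4) at week 4, where the difference from week 2 was 0.29 and not called. Prps2, which makes the ribose phosphate donor of nucleotide synthesis, went from 10.2 ± 0.807 to 15.1 ± 2.35 TPM (SD, n = 5 each).

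Other rises included genes for trafficking, autophagy and chromatin. Myo5b, a myosin motor of recycling endosomes, had a mean of 4.47 ± 0.377 TPM at week 2 and 6.92 ± 0.787 TPM at week 8 (SD, n = 5 each). Atg2a, a lipid transfer protein needed for autophagosome growth, rose by 0.33, Tpcn1, an endolysosomal cation channel, by 0.29, and Kmt2d, a histone H3 lysine methyltransferase, by 0.31. Tnfrsf23, a decoy receptor for the death ligand TRAIL, Tmem8, Zfhx2 and Samd4b rose by 0.32 to 0.38, each with a limma adjusted p of 0.0481. Outside the naming rule, and chosen after their values were seen, Ncdn and Zmiz2 rose by 0.24 and 0.25, and the RIKEN gene 2900052N01Rik rose from 0.468 ± 0.163 to 1.75 ± 0.326 TPM (SD, n = 5 each). That last gene was also the 1 gene called at week 6 against week 2, by 1.05.

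The largest fall was of mt-Nd6, the complex I subunit that alone among the mitochondrial messengers is read from the light strand. It measured 711, 768, 784, 928 and 861 TPM at week 2 and 594, 364, 468, 461 and 476 TPM at week 8. The groups did not overlap (-0.79 ± 0.12, SE, limma adjusted p = 0.0304). Its mean was 850 ± 97.5 TPM at week 4 (SD, n = 4) and 725 ± 77.5 TPM at week 6 (SD, n = 5), so that week 8 lay below each of the other weeks. Of the 13 mitochondrially encoded messengers tested, 1 fell and none rose (median -0.07), where 0.351% of all genes fell and 0.154% rose. The share of TPM from mitochondrially encoded genes was 58.4 ± 1.79% at week 2 and 58.3 ± 3.28% at week 8 (SD, n = 5 each, exact two-sided permutation p = 0.984, smallest possible 0.00794). mt-Nd6 overlaps mt-Nd5 on the opposite strand, and whether the counting used strand is not given in the sources used here.

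Another 6 of the genes that fell encode ribosomal proteins or their close relatives. Rps27, a protein of the small subunit, measured 248, 200, 207, 224 and 238 TPM at week 2 and 159, 158, 149, 157 and 179 TPM at week 8. Every later heart was below every earlier one (-0.47 ± 0.07, SE, limma adjusted p = 0.0304). Rpl39, of the large subunit near the exit tunnel, went from 104 ± 9.46 to 76.3 ± 6.26 TPM, Rps18 from 31.6 ± 3.02 to 23.9 ± 1.19 TPM, and Rps27a, made as a fusion with ubiquitin, from 148 ± 11.9 to 114 ± 6.29 TPM (SD, n = 5 each). Rps27l and Rpl36al, close relatives of Rps27 and Rpl36a, fell by 0.35 and 0.31. These genes have many processed copies in the genome, so their absolute levels are uncertain.

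The list of 40 ribosomal protein genes, which does not hold Rpl39, Rps27a, Rps27l or Rpl36al, lay on the same side. All 40 tested members had a lower mean log2 level at week 8, with a median of -0.21 against 0.01 over all genes tested. Over all genes 5513 of 11697 were negative. Of the 40 members, 2 (Rps27 and Rps18) were called lower, where 0.351% of all genes were. In 21 of 40 the groups did not overlap and week 8 was lower, where 4.07% of all genes did so. Without library 1 of week 2 the median was -0.15 and 12 were called lower, where 206 of 11634 genes were. On the deposited TPM the median was -0.15 with 39 of 40 negative. In the fit of the 4 Con weeks, the list's median was -0.02 at week 4 and -0.08 at week 6 against week 2, with none called at either, and these comparisons share the week 2 libraries.

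Nuclear genes of the respiratory chain had the same sign with none called, where 0.504% of all genes were. Of 43 tested, 42 were negative (median -0.15), 24 had an unadjusted p below 0.05 (18.7% of all genes did), and in 16 the groups did not overlap and week 8 was lower (4.07% of all genes). Cox7c, a small complex IV subunit, measured 782 to 949 TPM at week 2 and 632 to 704 TPM at week 8 (-0.31 ± 0.06, SE, limma adjusted p = 0.0504). Ndufa1, of complex I, measured 875 to 1183 TPM and 735 to 815 TPM (-0.36 ± 0.08, SE, limma adjusted p = 0.0586). Without library 1 of week 2, 8 of the 43 were called lower, where 206 of 11634 genes were.

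Several called genes make or assemble mitochondrial proteins. Usmg5, a small subunit of the ATP synthase, measured 1497 to 1802 TPM at week 2 and 1221 to 1303 TPM at week 8. Coa6, an assembly factor of complex IV, had 28.2 to 30.6 TPM and 22.9 to 24.2 TPM (-0.33 ± 0.04, SE, limma adjusted p = 0.0166). Mrpl33, a protein of the mitochondrial ribosome, went from 15.8 ± 1.28 to 11.996 ± 0.508 TPM (SD, n = 5 each). Outside the naming rule and chosen after their values were seen, Cox20 (complex IV assembly), Immp1l (a protease of the inner membrane), Minos1 (cristae junctions), Phb (prohibitin) and Ssbp1 (binding of mitochondrial DNA) fell by 0.24 to 0.32. Hspe1, the co-chaperonin of the mitochondrial matrix, measured 75.0 ± 3.25 and 61.5 ± 2.62 TPM (SD, n = 5 each). It was the 1 of 22 heat shock response genes that was called, where 0.504% of all genes were.

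Other genes fell as well. Polr2k, a subunit shared by the RNA polymerases, measured 52.3, 51.4, 46.4, 43.9 and 48.5 TPM at week 2 and 35.9, 37.1, 36.1, 34.9 and 34.8 TPM at week 8. The later hearts were tightly grouped below the earlier ones (-0.43 ± 0.05, SE, limma adjusted p = 0.0166). Magoh, of the exon junction complex, measured 36.6 to 39.2 TPM and 29.4 to 31.2 TPM, with the same adjusted p. Sec61g, a subunit of the endoplasmic reticulum translocon, Shfm1, of the proteasome lid, Pfdn1, a prefoldin subunit, and Snhg6, a host of small nucleolar RNA, fell by 0.34 to 0.43.

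These genes differed in length as well as in function. The exonic length (the union of annotated exons) had a median of 1702 bases for the genes that fell (38 with a length), 5590.5 bases for those that rose, and 4407.5 bases for all tested. Over all genes the median difference was -0.17 below 1000 bases, -0.13 to 1500 bases, -0.08 to 2000 bases, -0.04 to 3000 bases, 0.003 to 5000 bases and 0.06 above. Across 11290 genes the difference followed exonic length with Spearman's rho = 0.41, where genes are not independent replicates and all share the same 10 libraries. Each gene's log2 level was also taken relative to its mean over the 61 libraries kept. In each library, medians were formed over 210 short (under 1000 bases) and 4785 long (over 5000 bases) protein-coding genes. The short median minus the long median was 0.007 to 0.047 in 4 libraries of week 2, 0.42 in library 1 and -0.19 to -0.13 at week 8. After a curve on exonic length was removed from each library, 6 genes were called higher and 10 lower, and without library 1 of week 2 as well, 16 and 36. Lrrc10b and Slc40a1 were among the calls in both, and the ribosomal protein median was -0.17 and -0.13. The part of length in the falls beyond these values was not tested.

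**Figure D2:**
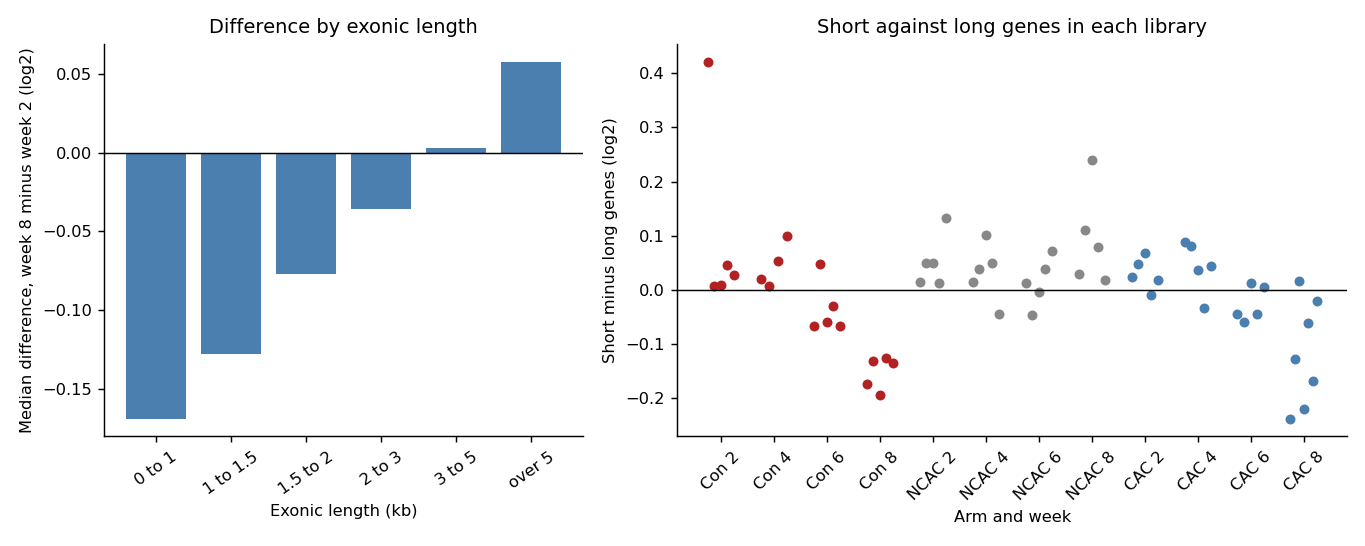
Left, median difference between week 8 and week 2 (log2) by exonic length in kilobases, which runs from -0.17 for the shortest genes to 0.06 for the longest. Right, short minus long genes (log2, under 1000 against over 5000 bases) in each library by arm and week. The 5 Con libraries of week 8 lie between -0.19 and -0.13, library 1 of week 2 is at 0.42, and some CAC libraries of week 8 are as low.

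No gene of the sarcomere, calcium handling, fatty acid oxidation, matrix or cell cycle lists was called, where 0.504% of all genes were. In lists of this size, no call is close to that share and does not show that they were unchanged. Myh6, the main heavy chain of the mouse ventricle, was at 6097 ± 540 TPM at week 2 and 6840 ± 624 TPM at week 8, and Myh7, its slow counterpart, at 380 ± 92.1 and 364 ± 41.7 TPM (SD, n = 5 each). For Myh7 the 95% interval of the difference was -0.35 to 0.26. These lists had 21 sarcomere, 24 calcium handling and ion channel, 35 fatty acid oxidation, 27 matrix and 13 cell cycle genes tested, with medians of -0.02, 0.13, 0.06, 0.04 and 0.08. In the same order, 7, 6, 6, 1 and 0 members had an unadjusted p below 0.05 (18.7% of all genes did). Actc1, cardiac actin, had 7312 to 9433 TPM at week 2 and 9487 to 10834 TPM at week 8 without overlap (0.28 ± 0.08, SE, limma adjusted p = 0.107), and Cacna1c, the L-type calcium channel, did not overlap either (0.37 ± 0.09, SE, limma adjusted p = 0.0867). Both lay higher at week 8 and short of the call.

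Stress and starvation genes varied widely between hearts of the same week. Nppa, atrial natriuretic peptide, measured 736, 171, 327, 952 and 298 TPM at week 2 and 273, 86.8, 146, 220 and 245 TPM at week 8. The groups overlapped (-1.19 ± 0.46, SE, limma adjusted p = 0.206). Ucp3, a mitochondrial carrier that follows fatty acid supply, measured 8.14, 7.86, 16.8, 11.3 and 15.7 TPM and 37.3, 26.99, 17.0, 24.1 and 15.7 TPM, with overlap at its edge (0.95 ± 0.26, SE, limma adjusted p = 0.104). Pdk4, which holds back glucose oxidation, ran from 46.5 to 145 TPM and 70.7 to 289 TPM. None of the 6 tested morning-arm and 15 evening-arm clock genes was called, where 0.504% of all genes were. In lists this small, no call does not show that clock genes were unchanged. Arntl ran from 0.449 to 7.39 TPM within week 2 and from 0.285 to 10.47 TPM within week 8.

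Interferon and antigen presentation genes were mostly higher at week 8 with none called, where 0.504% of all genes were. In the interferon response list 31 of 33 were positive (median 0.22), in MHC class I 9 of 9 (median 0.31) and in MHC class II 6 of 7 (median 0.48). Over all genes 6184 of 11697 were positive. H2-D1, a class I heavy chain, measured 94.8, 95.7, 108, 102 and 64.2 TPM at week 2 and 190, 84.2, 104, 92.2 and 186 TPM at week 8. Libraries 1 and 5 of week 8 were high, and the other 3 lay within the range of week 2 (0.43 ± 0.24, SE, limma adjusted p = 0.365). Cd74, the class II invariant chain, was also highest in libraries 1 and 5, with 172 and 151 TPM against 56.8 to 82.1 TPM in the rest of week 8. Without library 1 of week 8 the class II median was 0.25 and the interferon median 0.15. Against week 2, 32 of 33 interferon and 8 of 9 class I genes were negative at week 4, and 6 of 7 class II genes positive. At week 6, 21 of 33 interferon genes were positive, and 7 of 9 class I and 7 of 7 class II genes negative. Between weeks 8 and 2 of NCAC hearts, 31 of 34, 9 of 9 and 6 of 7 were negative, in the same order. For CAC hearts 28 of 33, 9 of 9 and 2 of 7 were positive.

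**Figure D3:**
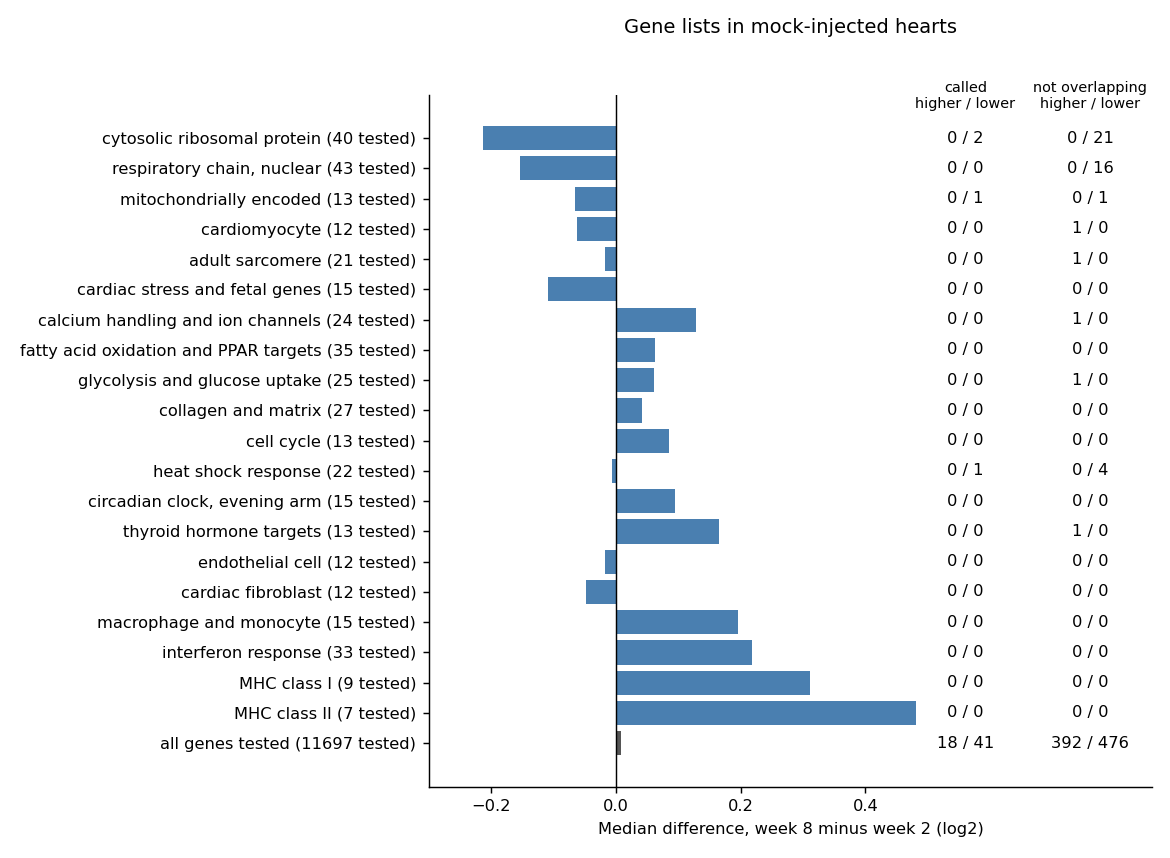
Median difference between week 8 and week 2 (log2) for gene lists and for all genes tested (grey bar), with the number of members tested. The columns at the right count members called higher and lower, and members whose groups did not overlap. Of the lists shown, the ribosomal protein and respiratory chain lists have the lowest medians, with 21 and 16 members lower without overlap, and the MHC class II list the highest with none.

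Over the 47 lists of 50 with no called gene, medians ran from -0.46 to 0.83, and those at both ends held 1 tested gene. The melanocyte list had Dct as its 1 tested member, at 1.35 ± 0.650 and 3.10 ± 0.766 TPM (SD, n = 5 each, limma adjusted p = 0.0625), while Tyr was at 0 in all 10 libraries and Mlana at most 0.361 TPM. Hairless (Hr), a thyroid hormone target, was higher without overlap and not called, at 6.26 ± 0.824 and 9.28 ± 1.46 TPM (SD, n = 5 each, limma adjusted p = 0.058). The haemoglobin share was 0.395 ± 0.0998% and 0.319 ± 0.133% of TPM (SD, n = 5 each, exact two-sided permutation p = 0.317).

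Against week 2, no gene was called at week 4 (762, or 6.38%, at an unadjusted p below 0.05) and 1 at week 6 (0.00837%, with 2156, or 18.1%, at an unadjusted p below 0.05). In the same fit of 4 Con weeks, week 8 against week 2 gave 215 higher (1.80%) and 372 lower (3.12%), with 21.6% at an unadjusted p below 0.05. Week 8 differed from week 4 in 27 higher (0.226%) and 80 lower (0.670%) and from week 6 in 105 higher (0.879%) and 106 lower (0.888%), in comparisons added after the data were seen. Of the 41 genes that fell, 28 were lower at week 8 than at week 4 and 25 lower than at week 6 by the adjusted p, and of the 18 that rose 4 and 6 were higher. All of these comparisons share libraries of week 8.

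NCAC hearts share no library with the Con comparison. No gene was called between their weeks 8 and 2 (1087 of 11965, 9.08%, at an unadjusted p below 0.05). That fit held the Con and NCAC hearts of both weeks, and the unadjusted share for Con in it was 19.6%. Over all genes in NCAC, 5675 of 11965 were negative and 6290 positive. Of the 41 genes that fell in Con, 5 had the same sign in NCAC (median 0.04), and of the 18 that rose 9 had it (median 0.04). Rps27, for example, had 206 ± 17.2 and 225 ± 40.1 TPM in NCAC at weeks 2 and 8, and Slc40a1 2.16 ± 1.04 and 1.88 ± 0.579 TPM (SD, n = 5 each). The difference between the arms was called for no gene (1793 at an unadjusted p below 0.05). Among the 59 the lowest limma adjusted p was 0.068, with no member past the threshold. This difference holds the Con change by which the 59 were chosen, so low values among them are no independent support. The ribosomal protein median was 0.07 in NCAC with 39 of 40 positive, where 6290 of 11965 genes were.

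CAC hearts gave far more calls, 2748 higher (22.5%) and 2442 lower (20.0%), or 4538 and 1071 on the deposited TPM. These come from a fit of Con and CAC hearts of both weeks, unlike the Con calls above. In that fit, an unadjusted p below 0.05 was met by 50.5% of genes for CAC and 16% for Con. Of the 18 genes that rose in Con, 5 rose and 2 fell in CAC, and of the 41 that fell 13 fell and 8 rose. The change over time differed from that in Con in 1588 genes upward (13%) and 1347 downward (11%). Among the 59, this difference ran against the Con change in 9 of the 18 and 20 of the 41, and with it in 1 of each. The 59 were chosen by their change in Con, which enters this difference, so its direction among them is no independent support. Slc22a5 fell in CAC by 0.63, and the difference from Con was -0.97 (limma adjusted p = 0.0012). Rps27 rose by 0.24 there, a difference of 0.71 (limma adjusted p = 0.00147), and 38 of the 40 ribosomal protein genes were called for the difference, all upward. Coa6 fell in both arms, by 0.39 in CAC, and the difference was not called (-0.06, limma adjusted p = 0.746).

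The largest differences upward were of Serpina3n (6.84), Lcn2 (5.13), Ccl8 (4.73) and Saa3 (4.6), acute-phase and chemokine genes whose change in Con was between -0.11 and 0.34. The largest downward were of Mylk4 (-3.50), Retnla (-3.34), Ucp3 (-3.01) and Acta1 (-2.58), with Con changes of 0.06 to 0.95.

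**Figure D4:**
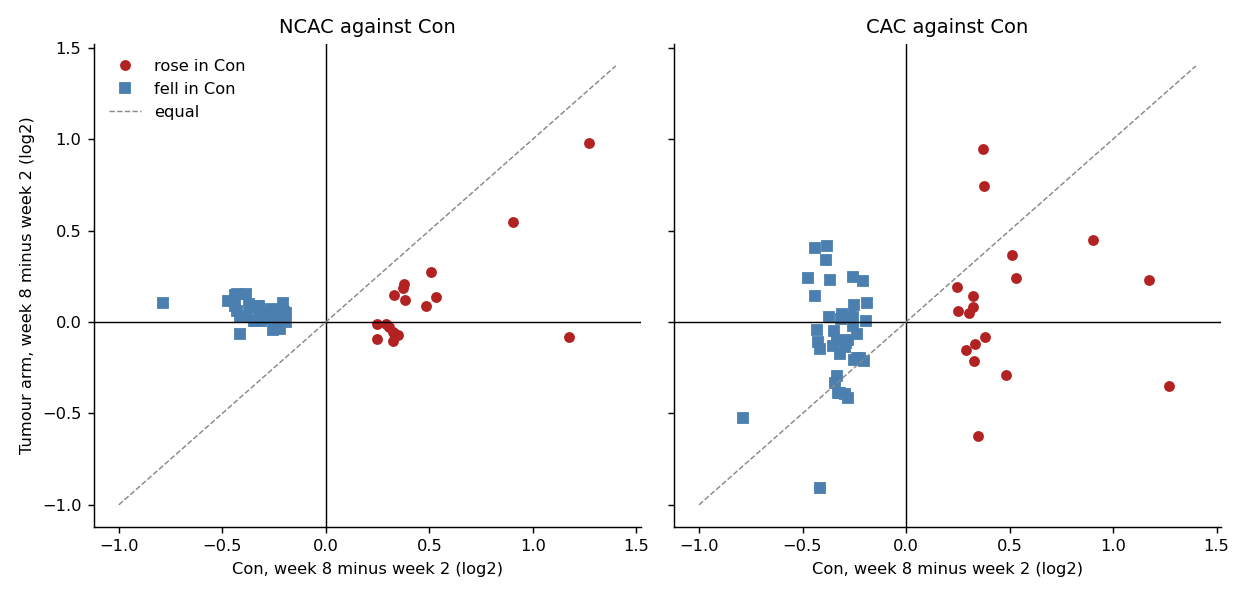
Difference between week 8 and week 2 (log2) of the 59 called genes in Con (horizontal) against NCAC (left) and CAC (right). Circles rose and squares fell in Con, and the dashed line marks equal change. In NCAC 5 of the 41 squares lie below 0 (5675 of all 11965 genes did), and in CAC the genes spread to both sides of 0.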

How the data were processed

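RNA of whole hearts was sequenced from stranded mRNA libraries, per the labels' protocols, and the reads were mapped to mm10, per the submitters' processing notes. The atrial markers Sln and Myl7 were at most 0.567 and 0.329 TPM in the 10 libraries, while the summed atrial list reached 1111 TPM. How much atrium the samples held was not tested. Which aligner, counting tool and annotation were used is not given in the sources used here. For 47643 gene symbols, the authors deposited TPM. TPM is a share, so abundant transcripts shift all others, and the values were therefore rescaled by the median of ratios over 10432 genes with at least 1 TPM in each of 61 libraries. With annotated lengths, 82.1 to 83.2% of low values lay within 0.05 of a whole read (10% by chance), which gave the depth estimate. Genes with at least 1 rescaled TPM in 5 of the 10 libraries were fitted on log2(value + 1) with limma 3.58.1 (trend) in R 4.3.3 with the data.table package (1.17.8). The pseudocount understates changes of low genes. The scripts were tested on simulated data. P-values from limma set the difference between weeks against the spread between libraries of the same group, moderated over genes. They do not separate week from age or harvest day. Gene positions and lengths were joined by symbol from GENCODE M21 (96.5% of tested genes), and 22 of 56 called genes with a position overlap a gene on the opposite strand, so their levels are uncertain if counting ignored strand. Plots used matplotlib 3.10.9 in Python 3.11.15, with tables read by pandas 2.3.3 (numpy 2.4.6).

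The comparison and the 50 gene lists were chosen with earlier results of these data known. Genes were named as the 15 largest called rises and 15 largest called falls with groups apart (predicted and RIKEN genes left out), the 2 members of smallest p of each list described, a panel of cardiac and clock genes, and the 4 largest differences in each direction between arms. Some genes that the rule names are not reported here. Alternatives were other scalings, pseudocounts, filters, fits with more groups, array weights, a replicate block, and leaving out each library. A length curve, an H2-Ea-ps term and week 8 against weeks 4 and 6 were added after the data were seen.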

Additional observations from a re-analysis of the deposited data

Results flagged for a closer look

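In groups of 5 libraries, a library was singled out when its gap to the nearest other exceeded 0.71 of the group's range, which chance alone gives in about 1 of 20 groups. This happened for 16 of 166 values (9.64%). Library 1 of week 2 accounted for most of them. It was low for Myo5b (3.81 TPM), Slc22a5 (12.1 TPM), Magoh (36.6 TPM), Atp2a2 (2290 TPM) and Cacna1c (29.1 TPM), and high for Rps18 (36.9 TPM), Mrpl33 (18.1 TPM), Myh7 (540.0 TPM), mt-Nd3 (23980 TPM) and the difference of short and long genes (0.42 on the log2 scale). Elsewhere in week 2, library 5 was high for Slc40a1 (2.36 TPM) and library 3 for Hba-a2 (626 TPM), whose near-identical copy Hba-a1 makes the split between them uncertain. In week 8, library 2 was high for Coa6 (24.2 TPM), library 4 high for Acta1 (929.5 TPM), and library 5 low for Nr1d1 (39.1 TPM) and Csrp3 (520 TPM).

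The 80 genes followed here were compared between CAC and Con hearts by an interaction term in limma. The change from week 2 to week 8 differed for 33 of them, with limma adjusted p between 0.000419 and 0.0484. It was lower in CAC, in log2 units, for Ucp3 (-3.01), Acta1 (-2.58), Angptl4 (-2.19), Pdk4 (-2.01), Actc1 (-1.69), Hr (-1.64), Lrrc10b (-1.62), Dct (-0.99), Slc22a5 (-0.97), Slc40a1 (-0.95), Myh6 (-0.94), Phkg1 (-0.77), Xirp2 (-0.73), Flnc (-0.58), Atg2a (-0.54), Tnfrsf23 (-0.46), Zfhx2 (-0.45), Tpcn1 (-0.44) and Cacna1c (-0.40). It was higher in CAC for Ankrd1 (2.17), Rpl39 (0.84), Snhg6 (0.80), Rps18 (0.73), Rps27 (0.71), Cd68 (0.65), Rps27a (0.60), Tmem8 (0.57), Tnnt2 (0.44), Mrpl33 (0.40), Sec61g (0.39), Csf1r (0.38), Polr2k (0.31) and Rps27l (0.30). No such difference was called between NCAC and Con. Over all genes, the difference between CAC and Con was called upward in 13% and downward in 11%. Many of the 80 genes were chosen by their change in Con, which enters this term. Their count and direction are therefore no independent support.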

How the results depend on the processing

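Counts of genes called at week 8 against week 2 in Con, 18 higher and 41 lower, moved with most settings: 3 and 1 on deposited TPM, 10 and 8 on shares without mitochondrially encoded and haemoglobin genes (where the filter of 1 TPM passes more genes), 25 and 64 with factors over the 10 libraries, 6 and 21 with no filter, and 35 and 103 with a filter of 5 TPM. They were 215 and 372 with all Con groups in the fit, 328 and 432 with all 12 groups, 163 and 310 with array quality weights, 6 and 10 with a length curve removed, and 1 and 2 with an H2-Ea-ps term. The cause of each shift was not tested. Leaving out each library in turn gave 0 to 101 higher and 0 to 206 lower. The replicate block left 0 and 0, but same-numbered libraries did not deviate together (correlations -0.16 to 0.34, no pair in which both libraries correlated best with their own number), so the libraries share only a number. With that block, Con week 6 against week 2 gave 0 higher, the NCAC minus Con difference 1 higher, and the CAC minus Con difference 1020 higher and 864 lower. On deposited TPM, CAC week 8 against week 2 gave 4538 higher and 1071 lower, and the CAC minus Con difference 615 lower. Without each library in turn, the mitochondrial share differed by -0.77 to 1.28 percentage points and the haemoglobin share by -0.11 to -0.03, and none passed the exact permutation test. The adjusted p of the 30 largest changes reached 0.342 over these settings, where 24 of the 30 were tested with the 5 TPM filter. Genes near 1 TPM, such as Lrrc10b at week 2, rest on fewer reads than more abundant genes of the same length.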

Other observations

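Transcripts of the class II pseudogene H2-Ea-ps split the 10 hearts in a way the labels do not give. It measured 10.8, 31.1, 17.2, 11.4 and 0 TPM in libraries 1 to 5 of week 2, and 55.9, 0, 12.6, 7.76 and 0 TPM in those of week 8. With its presence as a second term, limma called 3 of 11697 genes for that term at an adjusted p below 0.05. H2-Ea-ps defines the term and was itself among the genes tested, so a call of that gene would be fixed in advance. B cell genes were detected in all 10 hearts, with Ighm at 4.89 to 10.04 TPM at week 2 and 4.92 to 10.4 TPM at week 8. Of the T cell markers, Cd3d was at most 0.0734 TPM and Trac at most 0.501 TPM.

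Of the cell type lists, the summed brown adipocyte markers did not overlap between the weeks, at 3848 to 5083 TPM at week 2 and 3243 to 3457 TPM at week 8. Nearly all of that sum is Cox8b (1900 to 2676 TPM and 1663 to 1796 TPM) and Cox7a1 (1865 to 2365 TPM and 1524 to 1664 TPM), complex IV subunits that the heart makes too, and neither was called (limma adjusted p = 0.138 and 0.060). The defining marker Ucp1 was at most 0.0285 TPM. The sums of the other cell type lists overlapped. The summed red blood cell markers ran from 3159 to 6097 TPM at week 2 and from 1852 to 4474 TPM at week 8. Those of fibroblasts ran from 1366 to 1827 TPM and 1348 to 1541 TPM, and those of the endothelium from 1890 to 2297 TPM and 1966 to 2070 TPM. No member of these 4 lists was called, where 0.504% of all genes were. Sparc, a matrix protein of fibroblasts and endothelium, measured 199 to 257 TPM at week 2 and 168 to 205 TPM at week 8 (-0.34 ± 0.08, SE, limma adjusted p = 0.0672).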
